A study of Mus musculus with 6 samples.

Results

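Acid-sensing and mechanosensitive channel genes were followed in cultured cells of mouse dorsal root ganglia, the clusters of sensory neurons and glia beside the spinal cord. The 9 genes, of 45703 in the deposited count table, were taken by symbol: Asic1, Asic2, Asic3, Asic4, Piezo1, Piezo2, Stoml3, Tmem120a and Tmem150c. The study holds a single group of 6 biological replicates, all wild type C57BL/6 adults aged 4 to 6 weeks, and no untreated or treated contrast. Ganglia were dissociated with Liberase enzymes, and the cells were grown for 7 days on poly-L-lysine in medium holding 10% fetal calf serum plus the growth factors EGF and FGF, 10 ng/ml. RNA of 2 dishes was pooled per replicate, and the labels do not give the sex or number of the animals behind each culture. The culture is therefore a mixed population of neurons and of cells that can divide in serum, and the comparisons possible are those between replicates and between genes.

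Acid-sensing ion channels (ASICs) are trimeric sodium channels of the degenerin family that open when the outside of the cell turns acidic, as in inflamed or ischaemic tissue. Asic1, Asic2 and Asic3 encode subunits of such channels in sensory neurons, and the Asic4 product is not known to be gated by protons on its own. The Piezo proteins are large mechanically gated cation channels. Piezo2 is the main transducer of light touch and of body position in sensory neurons, while Piezo1 acts in vessels, blood cells and many other tissues that sense flow or stretch. Stoml3 encodes a stomatin-like membrane protein that sensitizes mechanically gated channels in touch receptors, and Tmem120a (TACAN) and Tmem150c (tentonin 3) encode membrane proteins proposed to take part in mechanotransduction, a role that is debated for both.

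The stretch just upstream of the start site was read from RefSeq promoter windows on GRCm38.p6 for 4 genes that stand for the patterns described further on: Piezo1 and Asic3, with the largest relative spread between cultures among the members above 3 counts, Tmem120a, the highest member per kilobase, and Stoml3, which was near 0. Each line gives 250 bases of the gene's strand, 5′ to 3′, ending at the base before the start, with CG dinucleotides in capitals. The windows were chr8:122551330-122551579 on the minus strand for Piezo1, chr5:24413201-24413450 on the plus strand for Asic3, chr5:135744173-135744422 on the minus strand for Tmem120a and chr3:53488457-53488706 on the plus strand for Stoml3.
Piezo1: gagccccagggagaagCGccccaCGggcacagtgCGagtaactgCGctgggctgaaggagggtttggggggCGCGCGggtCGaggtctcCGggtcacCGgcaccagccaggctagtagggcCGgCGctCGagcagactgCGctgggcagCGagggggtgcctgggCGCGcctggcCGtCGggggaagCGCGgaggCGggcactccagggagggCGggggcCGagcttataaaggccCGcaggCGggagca
Asic3: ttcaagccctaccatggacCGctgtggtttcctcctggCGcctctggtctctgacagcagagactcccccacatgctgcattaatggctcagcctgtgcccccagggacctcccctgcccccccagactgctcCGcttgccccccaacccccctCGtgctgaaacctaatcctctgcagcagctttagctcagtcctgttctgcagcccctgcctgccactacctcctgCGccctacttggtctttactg
Tmem120a: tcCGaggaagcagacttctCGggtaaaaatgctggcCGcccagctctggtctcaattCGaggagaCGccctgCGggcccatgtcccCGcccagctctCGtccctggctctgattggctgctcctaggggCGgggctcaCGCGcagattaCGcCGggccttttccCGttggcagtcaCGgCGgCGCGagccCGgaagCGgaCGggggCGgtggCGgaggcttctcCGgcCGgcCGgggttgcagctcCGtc
Stoml3: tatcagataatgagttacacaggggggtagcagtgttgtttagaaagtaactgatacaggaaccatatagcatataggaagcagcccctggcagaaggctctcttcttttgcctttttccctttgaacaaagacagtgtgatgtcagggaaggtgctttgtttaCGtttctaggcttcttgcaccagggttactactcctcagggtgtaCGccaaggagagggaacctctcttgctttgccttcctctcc
The Piezo1 window held 26 CG dinucleotides and the Tmem120a window 27, against 5 for Asic3 and 2 for Stoml3. Across 32851 windows of the same length in the table the median was 6, and 90.4% held fewer than Piezo1, 44.4% fewer than Asic3 and 18.8% fewer than Stoml3. The letters TATAA, searched on both strands, occurred in the Piezo1 window at position -24 on the gene's strand and, as the overlapping reverse complement TTATA, at position -25. They were in none of the other 3 windows, and 22.8% of all windows held them on either strand. Windows were read for 7 of the 9 genes, and Piezo2 was left out of this search. Asic2 had 2 start sites (14 and 9 CG dinucleotides) and Tmem150c had 3 (8, 16 and 26), whose reads the gene-level counts do not separate.

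The 6 libraries held 20070639 to 22968642 counts. Levels are given as CPM (a gene's count scaled to a common library total) and, where genes are compared with each other, as CPM per kilobase of the gene's combined exons. All 12 genes of a neuron marker list and all 8 of a glial lineage list reached 1 CPM in every library. Lists of fibroblast, mural, endothelial and macrophage markers differed more between replicates: their summed levels ran from 3341 to 14113 CPM, from 274 to 1551 CPM, from 10.4 to 127 CPM and from 14.6 to 139.7 CPM. Replicate 1 was lowest and replicate 5 highest in each of these 4 lists. Single markers could be missing where the rest of the list was counted. Cldn5 of endothelium had 0 counts in replicates 2, 3 and 6, and Kcnj8 of mural cells had 0 counts in replicate 1. All other markers of both lists had counts in these replicates, some of them under 1 CPM. Among them Cdh5 stood at 14.3, 13.1 and 15.8 CPM in replicates 2, 3 and 6, and Pdgfrb at 124 CPM in replicate 1.

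Of the ASIC genes, Asic3 was the highest per kilobase, Asic2 and Asic1 were lower, and Asic4 was not counted at all. Asic3 (gene 171209, chromosome 5, 24413451 to 24417840) encodes the subunit best known from pain-sensing and muscle afferents. Its level was 4.59 CPM at the lowest, 5.78 CPM at the median and 12.1 CPM at the highest, with a mean of 7.49 ± 3.47 CPM (SD, n = 6). The values fell into a lower set of replicates 1, 2, 4 and 5, between 4.59 and 6.33 CPM, and a higher pair, replicates 3 and 6, at 11.7 and 12.1 CPM. In the deposited table the span of Asic3 lies inside that of Cdk5, a kinase gene on the opposite strand counted at 61.5 ± 6.42 CPM. The GENCODE exons of these genes on the same build share 0 bases, but the strand setting of the counting is not given in the sources used here, so reads of such a pair may not be told apart. Cdk5 was at 69.2 CPM in replicate 3 and 63.3 CPM in replicate 6, against 49.7 to 63.8 CPM in the other replicates.

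Asic2 (gene 11418, chromosome 11, 80880163 to 81968396), which forms mixed channels with the other subunits, had its lowest level in replicate 2 (3.23 CPM) and its highest in replicate 3 (8.54 CPM), with a median of 5.86 CPM and a mean of 5.69 ± 1.74 CPM (SD, n = 6). Asic1 (gene 11419, chromosome 15, 99670197 to 99701130), a subunit found in brain as well as in sensory neurons, was lowest in replicate 2 (0.729 CPM) and highest in replicate 1 (2.18 CPM), with a median of 1.32 CPM and a mean of 1.38 ± 0.510 CPM (SD, n = 6). It rested on 178 counts over the 6 libraries and reached 1 CPM in 5 of them. Asic4 (gene 241118, chromosome 1, 75450510 to 75474340) had 0 counts in every library, which at 3 counts allows up to 0.131 to 0.149 CPM per library, a limit that covers counting error only. Taken as shares of the summed Asic1, Asic2 and Asic3 levels per kilobase, Asic3 made up 76.8% ± 7.33, Asic2 17.1% ± 5.27 and Asic1 6.04% ± 2.87 (SD, n = 6). The Asic3 share lay between 68.4% in replicate 1 and 86.9% in replicate 6. Per kilobase the order of Asic3, Asic2 and Asic1 was the same in all 6 cultures. As CPM, Asic2 was above Asic3 in replicate 1 (5.83 against 5.22 CPM) and replicate 5 (5.92 against 4.59 CPM). Divided by GENCODE exon lengths, where Asic2 has 4264 exon bases and not the 8231 of the deposited table, the shares were 64.7% ± 9.40 for Asic3, 29.8% ± 7.87 for Asic2 and 5.51% ± 2.45 for Asic1. In these bulk libraries, fewer cells that express a gene and less of its RNA per cell cannot be told apart.

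Both Piezo genes were well counted. Piezo2 (gene 667742, chromosome 18, 63010213 to 63387716) was nearly even across the cultures, at 88.9 CPM in the lowest library, replicate 1, 105 CPM at the median and 116 CPM in the highest, replicate 6, with a mean of 104 ± 10.4 CPM (SD, n = 6). Piezo1 (gene 234839, chromosome 8, 122481698 to 122551329) was not. It stood at 45.3, 69.7, 54.5, 87.2, 136.9 and 64.6 CPM in replicates 1 to 6, a mean of 76.4 ± 32.9 CPM (SD, n = 6). The highest library, replicate 5, was 3.02 times the lowest, replicate 1, whereas for Piezo2 the ratio of highest to lowest was 1.30. The 3′ end of Piezo1 overlaps Ctu2, a gene of the opposite strand counted at 12.1 ± 1.17 CPM (SD, n = 6). Their spans in the deposited table share 1395 bases, and their GENCODE exons share 2441 bases. The effect of this overlap on the Piezo1 counts was not tested.

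Which Piezo gene was higher per kilobase depended on the length used. With the combined exon lengths of the deposited table, 8987 bases for Piezo1 and 11356 for Piezo2, the ratio of Piezo1 to Piezo2 was 0.644, 0.883, 0.610, 0.996, 1.77 and 0.704 in replicates 1 to 6. Piezo1 was then the higher of the pair in replicate 5, and in replicate 4 they were almost equal. With GENCODE exon lengths, 9935 and 17162 bases, the ratio was 0.880, 1.21, 0.834, 1.36, 2.41 and 0.963, and Piezo1 was higher in replicates 2, 4 and 5. Replicate 5 had the highest ratio and replicate 3 the lowest. This order is the same under both lengths by construction, since the lengths scale all replicates by the same factor.

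Of the remaining 3 genes, Tmem120a was even and well counted, Tmem150c was low and uneven, and Stoml3 was barely counted. Tmem120a (gene 215210, chromosome 5, 135735490 to 135744172) was lowest in replicate 1 (20.3 CPM) and highest in replicate 5 (26.4 CPM), with a median of 22.7 CPM and a mean of 23.1 ± 2.13 CPM (SD, n = 6). Its exons are short, 1278 bases in all, so that per kilobase it was the highest of the 9 genes, at 18.0 ± 1.66 CPM per kb. Tmem150c (gene 231503, chromosome 5, 100077872 to 100165607) was lowest in replicate 2 (3.96 CPM) and highest in replicate 3 (10.8 CPM), with a median of 5.64 CPM and a mean of 6.23 ± 2.35 CPM (SD, n = 6). Without replicate 3 the cultures would span 3.96 to 5.92 CPM. Stoml3 (gene 229277, chromosome 3, 53488707 to 53508863), the touch receptor gene, had 1 count in replicate 1, 2 counts in replicate 3 and 0 in the others. No Stoml3 transcript was detectable beyond 3 counts at this depth.

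Ordered by level per kilobase of the deposited exon length, Tmem120a came first, the Piezo genes next, then Asic3, and Tmem150c, Asic2 and Asic1 last. Mean levels were 18.0 ± 1.66 CPM per kb for Tmem120a, 9.19 ± 0.919 for Piezo2, 8.50 ± 3.66 for Piezo1, 3.37 ± 1.56 for Asic3, 1.36 ± 0.515 for Tmem150c, 0.691 ± 0.212 for Asic2 and 0.238 ± 0.0878 for Asic1 (SD, n = 6). Among 14953 genes with a mean of at least 1 CPM, 74.5% were lower per kilobase than Tmem120a, 56.7% lower than Piezo2, 32.4% lower than Asic3 and 1.66% lower than Asic1. Differences of log2(CPM per kb + 0.1) were taken within each library between the 6 neighbouring pairs of the 7 genes above 3 counts. They were 0.97 ± 0.157 for Tmem120a over Piezo2, 1.33 ± 0.979 for Piezo1 over Asic3, 1.19 ± 0.494 for Asic3 over Tmem150c, 0.87 ± 0.166 for Tmem150c over Asic2 and 1.23 ± 0.415 for Asic2 over Asic1 (SD, n = 6). Each of these had the same sign in 6 of 6 libraries. For Piezo2 over Piezo1 it was 0.20 ± 0.564, smaller than its spread, with Piezo2 higher in 5 of 6 libraries. The pairs were set by ranking these same values, so the differences describe the order and no p is given.

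Parts of this order turned with the length used. With GENCODE exon lengths Tmem150c minus Asic2 was -0.24 ± 0.169 and Piezo2 minus Piezo1 was -0.25 ± 0.563, while the other 4 differences kept their sign, from 1.12 to 2.06. As CPM without division by length, Tmem120a minus Piezo2 was -2.17, Asic3 minus Tmem150c was 0.22 and Tmem150c minus Asic2 was 0.12. Asic1 was the lowest of the 7 and Asic3 was above Tmem150c and Asic2 on each of these 3 scales, going by the means. As CPM, Asic3 was below both in replicates 1 and 5 and above both in the others. It stood at 5.22 and 4.59 CPM there, against 5.92 and 5.49 for Tmem150c and 5.83 and 5.92 for Asic2.

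**Figure D1:**
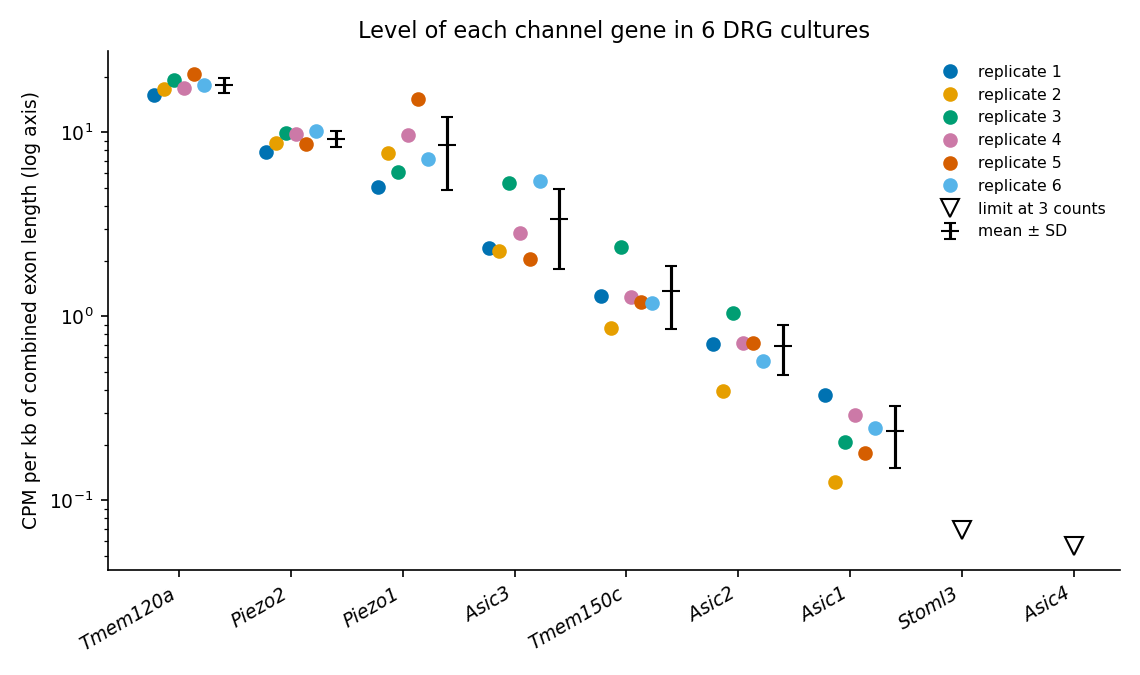
Level of the 9 genes in CPM per kilobase of combined exon length on a log axis, with 1 coloured point per replicate culture and the mean ± SD (n = 6) beside them. Triangles mark the level that 3 counts would give for Stoml3 and Asic4, and replicate 5 is highest for Piezo1 while replicates 3 and 6 are highest for Asic3.

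The members differed in how far the cultures stood apart. The coefficient of variation (SD as a percent of the mean) was 46.3% for Asic3, 43.1% for Piezo1, 37.7% for Tmem150c, 36.9% for Asic1, 30.6% for Asic2, 10.0% for Piezo2 and 9.23% for Tmem120a. Single cultures carried part of this. Without replicate 5 it was 24.7% for Piezo1, and without replicate 3 it was 14.7% for Tmem150c, whereas for Asic3 it stayed between 43.8% and 49.5% with any 1 culture left out. Counting noise at the mean count would give 2.48% for Piezo1, 2.12% for Piezo2 and 7.91% for Asic3, but 18.4% for Asic1. Each gene's 6 counts were set against those expected from the scaled library sizes in a chi-square test. This test, adjusted over all genes by the Benjamini-Hochberg method, called all 7 members that passed the low-count filter, while Asic4 and Stoml3 did not pass it. Of all 14998 genes tested, 76.3% were called, so the count of members is near what any genes would give.

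The size of the excess separated the members more than the calls did. As estimated by edgeR, the spread beyond counting noise (biological coefficient of variation) was 0.332 for Piezo1, where genes of like abundance had 0.150, and 0.383 for Asic3 against 0.270. For Piezo2 it was 0.115 against 0.150 and for Tmem120a 0.128 against 0.201. Another measure, edgeR's quasi-dispersion divided by its trend, was 28.8 for Piezo1, 8.31 for Asic3, 1.64 for Piezo2 and 0.663 for Tmem120a. One-sided tests of this ratio gave an adjusted p of 0.901 for Piezo1 and 0.940 for Asic3. Of 14998 genes 0 passed, with 809 at an unadjusted p under 0.05. Without replicate 1 the chi-square call was lost for Asic1 (adjusted p = 0.0838) and Tmem120a (adjusted p = 0.0857), without replicate 5 for Tmem120a (adjusted p = 0.179), and without replicate 3 for Tmem150c (adjusted p = 0.0729).

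**Figure D2:**
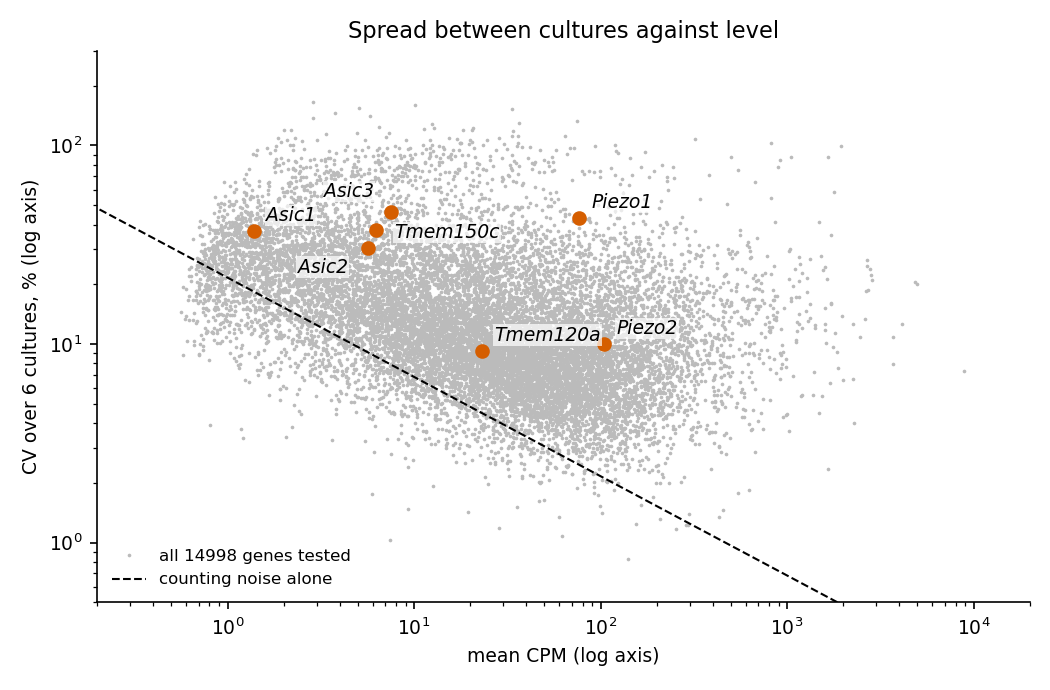
Coefficient of variation over the 6 cultures in percent against mean CPM, both on log axes, with 1 grey point for each of the 14998 genes tested and the 7 members in orange. The dashed line is the spread that counting noise alone would give. Piezo1 is at 43.1% (24.7% without replicate 5), and Piezo2 and Tmem120a lie near 10%.

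Piezo1 was the only member called with a marker list by edgeR, and the list was that of fibroblasts. A score, the mean of log2(CPM per kb + 0.1) over the markers of a list with trimmed-mean scaling, was used as a numeric term in edgeR's quasi-likelihood fit, with a separate fit for the neuron, fibroblast and glial lineage lists. On the fibroblast score, which ran from 3.25 in replicate 1 to 6.60 in replicate 5, Piezo1 rose by 0.46 ± 0.0575 on the log2 scale per unit (SE, n = 6, edgeR adjusted p = 0.00521). The other 6 members tested had slopes from -0.22 for Asic1 to 0.079 for Tmem120a and adjusted p-values from 0.294 to 0.959. Of all genes, 6.09% were called with this score, 4.91% rising and 1.18% falling, and the median slope was -0.0050. Piezo2 had a slope of 0.019 ± 0.0526 (SE, n = 6, edgeR adjusted p = 0.863).

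That call was lost without replicate 5, while the slope stayed positive with any 1 culture left out. Without replicate 5 the slope of Piezo1 was 0.37 (edgeR adjusted p = 0.186), and with the median in place of the mean of the list it was 0.37 (adjusted p = 0.0508). Leaving out any other culture gave adjusted p-values from 0.00314 to 0.0213. The number of all genes called was also lower, 107 in place of 914 without replicate 5 and 522 without replicate 4. In the same order of replicates the endothelial score was -1.45, -1.19, -1.08, -0.58, 1.23 and -1.17, the mural score 0.67, 1.42, 2.52, 2.57, 3.45 and 2.66, and the macrophage score -0.68, -0.041, 1.77, 1.85, 2.08 and 0.26. Replicate 5 was thus highest for Piezo1 and for all of these lists, and their part in the result was not tested.

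On the neuron score no member passed. The slopes were 1.27 ± 0.456 for Asic3 (edgeR adjusted p = 0.383), 0.95 ± 0.310 for Tmem150c (edgeR adjusted p = 0.340), 0.78 ± 0.550 for Asic1 (edgeR adjusted p = 0.633), 0.67 ± 0.364 for Asic2 (edgeR adjusted p = 0.540), 0.11 ± 0.154 for Piezo2 (edgeR adjusted p = 0.825), -0.11 ± 0.145 for Tmem120a (edgeR adjusted p = 0.813) and -1.20 ± 0.330 for Piezo1 (edgeR adjusted p = 0.273), each per unit of score with its SE. All 3 counted ASIC genes and Tmem150c thus had positive estimates, each larger than its SE, and none passed the adjustment over all genes. Before adjustment the edgeR p was 0.0293 for Asic3, 0.0201 for Tmem150c and 0.00949 for Piezo1, with 1709 of all genes under 0.05. Of all genes, 0.193% were called, all 29 of them rising, and 0 were called when any 1 culture was left out. With DESeq2's Wald test the slope of Piezo1 was -1.20 with an adjusted p of 0.0216. On the glial lineage score 0% of all genes were called by edgeR, with 2637 at an unadjusted p under 0.05, and DESeq2 called 698 genes. The largest member slopes there were 1.90 ± 0.998 for Asic3 (edgeR adjusted p = 0.370) and -1.82 ± 0.630 for Piezo1 (edgeR adjusted p = 0.226). Without replicate 1, 1212 genes were called and the Piezo1 slope of -1.86 passed (edgeR adjusted p = 0.0346), and without replicate 5 that slope was -0.31.

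**Figure D3:**
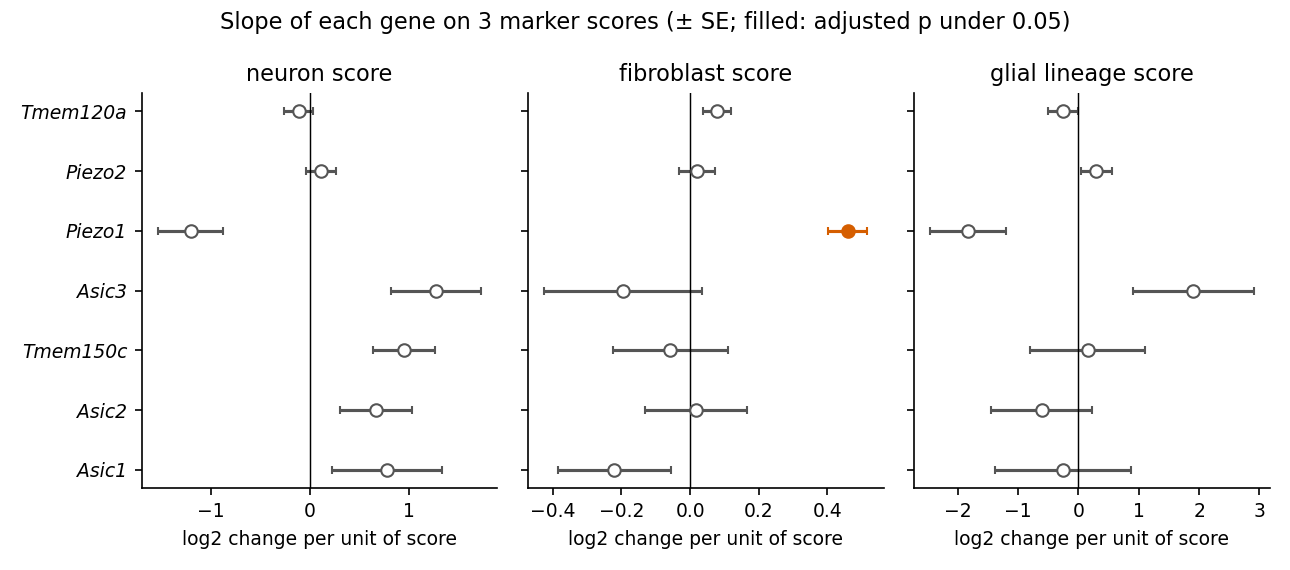
Slope of each of the 7 counted members on the neuron, fibroblast and glial lineage scores, as log2 change per unit of score with its SE from edgeR's quasi-likelihood fit (n = 6 cultures). Filled points have an adjusted p under 0.05, and only Piezo1 on the fibroblast score, at 0.46, is filled.

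Correlations were taken over the same 6 cultures. None of 21 relations between the 7 members and the 3 scores passed the adjustment. Piezo1 and the fibroblast score correlated at 0.95 by Pearson's r (p = 0.00556 by exact permutation, adjusted to 0.117) and at 0.83 by Spearman's rho (p = 0.0583 by exact permutation, adjusted to 0.6125), and r was 0.76 without replicates 1 and 5. Piezo1 and the neuron score had r = -0.81 (exact permutation p = 0.0472, adjusted p = 0.350) and rho = -0.89 (exact permutation p = 0.0333, adjusted p = 0.6125), with r = -0.59 without replicates 3 and 5. Tmem150c and the neuron score had r = 0.79 (exact permutation p = 0.050, adjusted p = 0.350) and rho = 0.71 (exact permutation p = 0.136, adjusted p = 0.715), with r = 0.90 without replicates 3 and 5. Asic3 and the neuron score had r = 0.74 (exact permutation p = 0.1125, adjusted p = 0.418) and rho = 0.71 (exact permutation p = 0.136, adjusted p = 0.715), with r = 0.43 without replicates 3 and 5. The labels name no batch within which these could be recomputed.

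**Figure D4:**
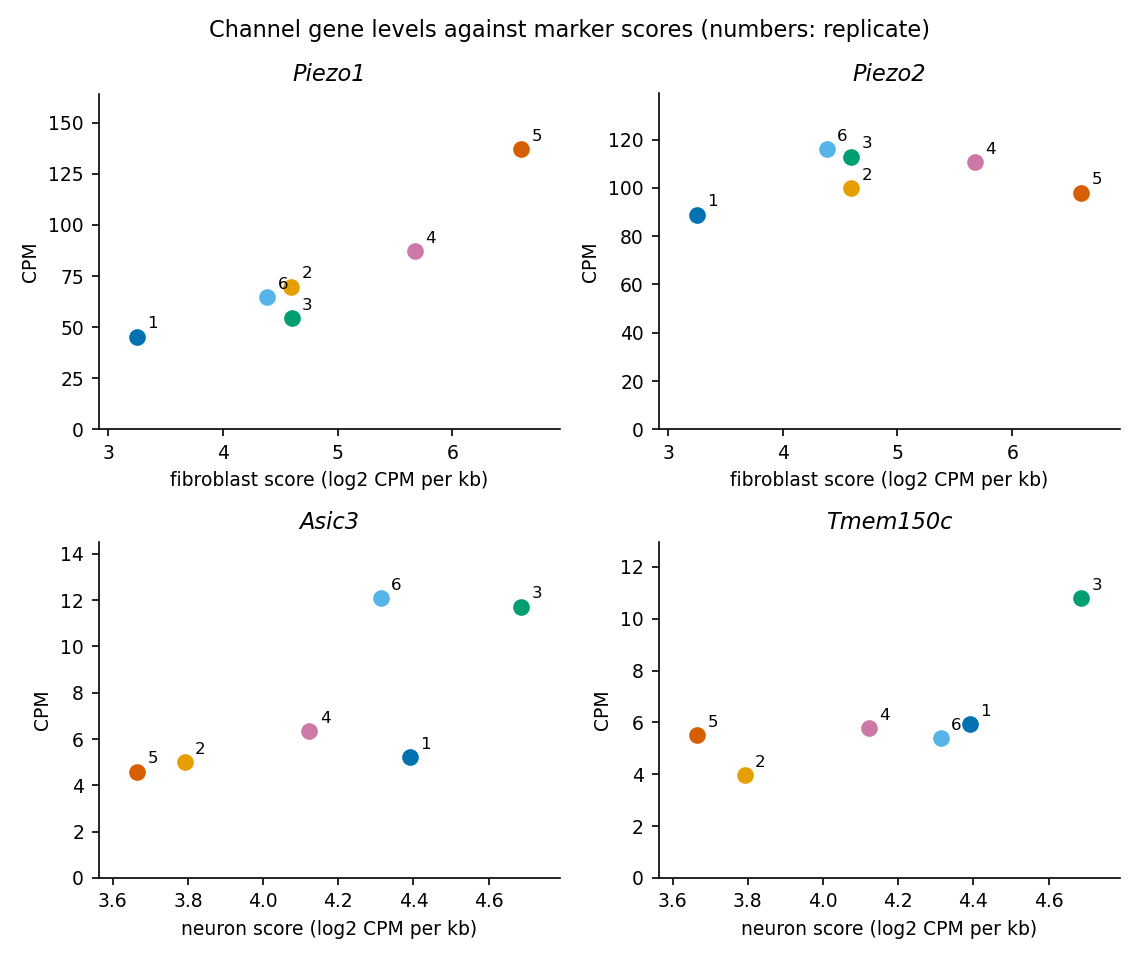
CPM of Piezo1 and Piezo2 against the fibroblast score and of Asic3 and Tmem150c against the neuron score, with 1 point per culture numbered by replicate and CPM axes starting at 0. Piezo1 runs from 45.3 to 136.9 CPM along the fibroblast score while Piezo2 stays between 88.9 and 116 CPM, and Asic3 in replicate 1 is low although that culture has the second highest neuron score.

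The neuron score of the same library, whose own SD over cultures was 0.384, was taken off each gene's log2 level. The SD over cultures fell from 0.424 to 0.265 for Tmem150c, from 0.602 to 0.409 for Asic3 and from 0.378 to 0.327 for Asic2, and hardly moved for Asic1, from 0.375 to 0.372. For Piezo1 it was larger, 0.888 after 0.549. For Piezo2 and Tmem120a, with an SD far below that of the score, subtraction had to give a larger SD, and nothing is read from it. Relative to a list of nociceptor markers such as Calca and Scn10a the SD of Asic2 was 0.181 and that of Tmem150c 0.248. These were the smallest for these genes among the 5 lists tried, for Tmem150c close to the 0.265 of the neuron list. The fibroblast list, whose score had an SD of 1.15, had to give a larger SD for both genes. These values describe the spread and were not tested.

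The genes with the most similar profile over the 6 cultures were found among 10267 genes of at least 10 CPM by Pearson's r of log2 CPM. With so many genes and only 6 libraries high values arise easily, and r is given as a ranking. For Asic3 they were Kcnma1 (r = 0.994), the large-conductance calcium-activated potassium channel, Cbx7 (r = 0.986) and Zfp462 (r = 0.974). Kcnma1 stood at 58.4 and 60.4 CPM in replicates 3 and 6 and at 32.7 to 41.3 CPM in the others, the same pair of high cultures as for Asic3. For Piezo1 they were Ckap4 (r = 0.999), Mmp3 (r = 0.999), a matrix metalloproteinase which stood at 4.79 CPM in replicate 1 and 131 CPM in replicate 5, and Rrbp1 (r = 0.998). For Asic2 they were Myt1, Ywhab and Prdm12, the last a transcription factor of nociceptor development (r from 0.983 to 0.989), and for Tmem150c Vezt, Coil and the noncoding RNA Meg3 (r from 0.978 to 0.984). Piezo2 was closest to Mad2l2, Fah and Ildr2 (r from 0.990 to 0.998), Tmem120a to Lmnb2, Ocrl and Macf1 (r from 0.979 to 0.989), and Asic1 to Pbdc1 (r = 0.966) and Ccny (r = 0.960).

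Other genes of acid and mechanical sensing were read in 6 lists with 38 genes. Of the other subunits of the degenerin and epithelial sodium channel family, 3 of 4 (Asic5, Scnn1b and Scnn1g) had at most 3 counts in every library, and Scnn1a was at 0.417 ± 0.201 CPM (SD, n = 6). Of 7 other proton sensors, 2 reached 1 CPM in every library. These were Trpv1, which is also in the nociceptor list, and Pacc1. Pacc1, the proton-activated chloride channel, was at 18.0 ± 3.78 CPM per kb, and the heat and acid sensor Trpv1 was at 8.99 ± 3.45 CPM per kb (SD, n = 6). The proton-sensing receptors Gpr4, Gpr65 and Gpr132 each had a mean under 1 CPM.

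Of the stomatin family and ASIC partners, 6 of 7 reached 1 CPM in every library. Stom, the founding member of the family, was at 22.2 ± 2.27 CPM per kb and Stoml1 at 19.3 ± 2.49 CPM per kb, where Stoml3 was at or under 3 counts. S100a10, an annexin partner, was the highest gene of these lists at 368.8 ± 49.4 CPM per kb, and it fell by 0.16 ± 0.0327 on the log2 scale per unit of the fibroblast score (SE, edgeR adjusted p = 0.0310), 1 of 6 genes tested, where 1.18% of all genes fell. That call was lost without replicate 5 (edgeR adjusted p = 0.349) and without replicates 1, 3, 4 or 6 in turn, with adjusted p-values from 0.0524 to 0.103. Among the relatives of the TMEM genes, Tmem150a was at 19.0 ± 0.886 CPM per kb and Tmem120b at 2.13 ± 0.203 CPM per kb, and Tmem150b had at most 3 counts in every library.

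A further list held 11 genes under the name of other mechanically gated channels, a label not tested here for any of them. Of these, 7 reached 1 CPM in every library and the hair cell genes Tmc1 and Tmc2 had at most 3 counts. Tmem63b led at 41.4 ± 4.40 CPM per kb, followed by Lrrc8a at 21.2 ± 1.11, Tmem63a at 17.7 ± 2.42 and Pkd2 at 15.8 ± 2.41 CPM per kb (SD, n = 6). Of the 8 genes tested, 1 rose with the neuron score (0.193% of all genes did) and 2 with the fibroblast score (4.91% of all genes). The first was Tmem63c, by 1.42 ± 0.164 on the log2 scale per unit (SE, edgeR adjusted p = 0.0449), and the call was lost in each of the 6 fits that left out a culture, with adjusted p-values from 0.108 to 0.449. The potassium channel gene Kcnk2 rose by 0.84 ± 0.124 per unit of the fibroblast score (SE, edgeR adjusted p = 0.010) and Pkd2 by 0.17 ± 0.0305 (SE, edgeR adjusted p = 0.0212). Without replicate 5 these were 0.46 (edgeR adjusted p = 0.254) and 0.14 (edgeR adjusted p = 0.338), and the Pkd2 call was also lost without replicate 1 or 4. The median slope of the 8 genes on the fibroblast score was -0.067, against -0.0050 for all genes.

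Of 6 regulators of Piezo channels, 5 reached 1 CPM in every library, and 1 of 5 tested rose with the fibroblast score, as 4.91% of all genes did. Mdfic, whose product binds Piezo channels as an auxiliary subunit, stood at 23.0 CPM in the lowest library, replicate 1, 39.0 CPM at the median and 67.5 CPM in the highest, replicate 5. It rose by 0.43 ± 0.0395 on the log2 scale per unit of the score (SE, edgeR adjusted p = 0.00157), and by 0.45 without replicate 5 (edgeR adjusted p = 0.0562). The median slope of the 5 genes was 0.0072. The other 4 genes tested, Mtmr2, Atp2a2, Anxa6 and Pkd1, were not called on any of the 3 scores.

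**Figure D5:**
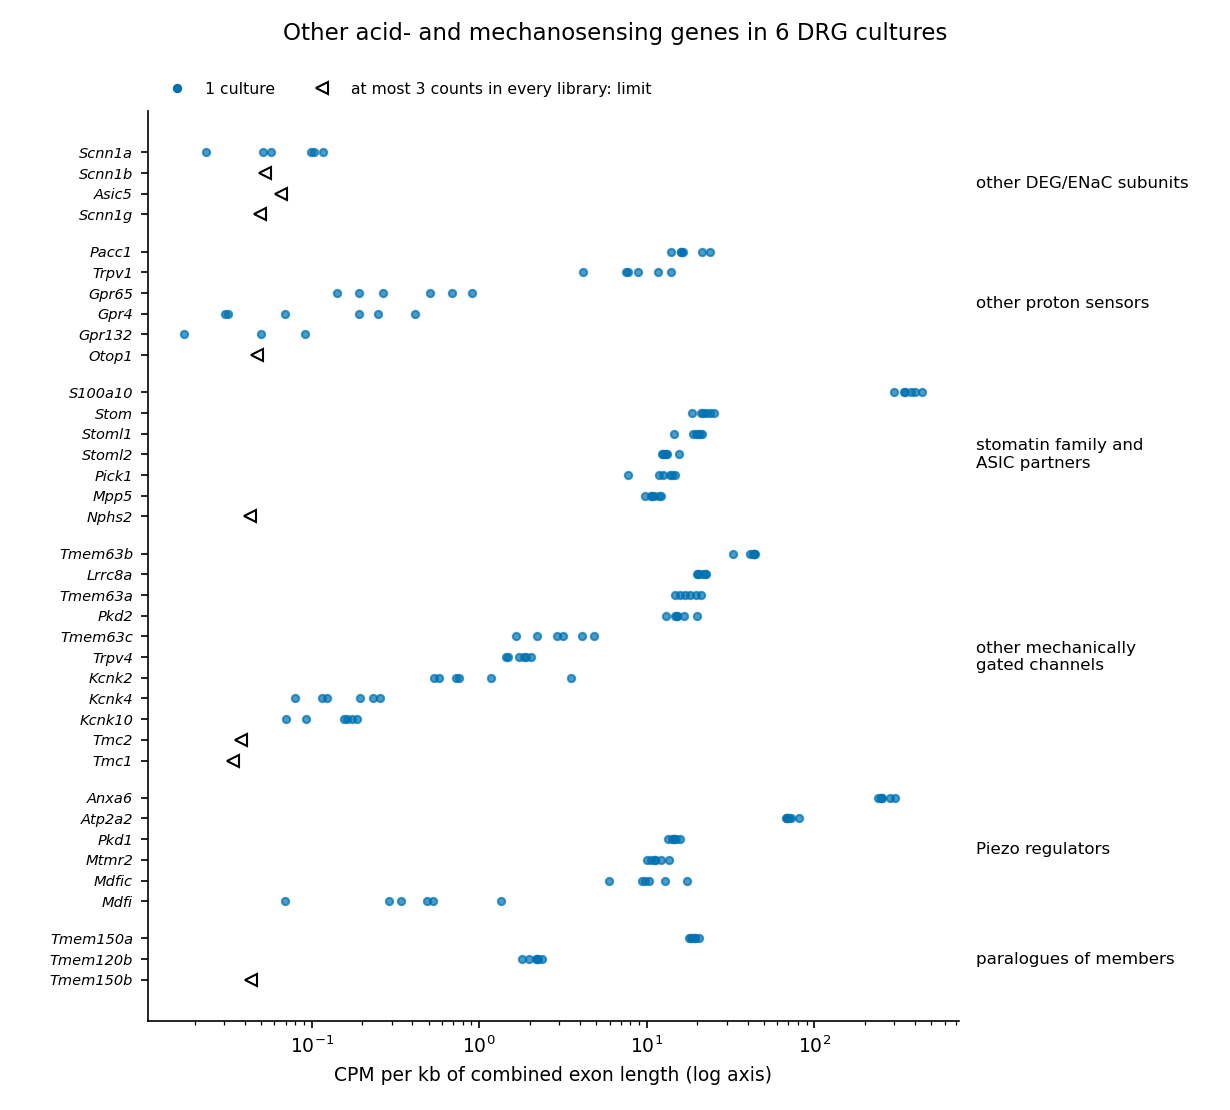
CPM per kilobase of combined exon length, on a log axis, of genes in the 6 lists, with 1 point per culture and values of 0 left out. Triangles mark the limit at 3 counts for genes with at most 3 counts in every library, and S100a10, at 368.8 CPM per kb, is the highest.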

How the data were processed

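RNA sequencing libraries of 6 cultures were read from the table of estimated counts that the authors deposited, without scaling, for 45703 genes. Some counts are fractions (13.4% to 14.7% of the values in a library). Per the submitters' processing notes the tools were bcl2fastq 2.20.0.422, cutadapt 2.5, STAR 2.7.2b and featureCounts 1.6.4 of Subread, with the build GRCm38.p6. Strand setting and the handling of multi-matching reads are not given in the sources used here. Poly-A libraries came from a stranded kit, per the labels' protocols. Gene lengths are the combined exon lengths, another column of the deposited table, per the file headers. Coordinates are those of the table, counted from 1, of which 45701 starts equalled RefSeq's. The table had 0 further columns of per-sample values.

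CPM used library totals. In R 4.3.3 the counts were rounded and tested with edgeR 4.0.16, with DESeq2 1.42.0 as an alternative. Low genes were dropped by filterByExpr, and libraries were scaled by the trimmed mean of M-values. Genes were called at an adjusted p under 0.05 (Benjamini-Hochberg). SEs of slopes are the slope divided by the square root of the quasi-F statistic. Scores come from the same libraries as the genes tested. The tests were tried on simulated data of 14998 genes, with 200 of the better-counted genes changed by 1 on the log2 scale. The chi-square test, simulated with counting noise only, recovered 197 with 11 other calls. Real cultures also differ beyond counting noise, so this does not give its rate of other calls there. The fibroblast slope test, simulated with the same change per unit of score, recovered 195 with 10 other calls. That change was larger than the slope of 0.46 for Piezo1, and smaller slopes were not tried. p-values measure the spread between these 6 samples, except those of the chi-square test, which measure departure from counting noise. Members and gene lists were chosen with earlier results of these data known. The named genes are the members, the listed genes and, for each member with a mean of at least 1 CPM, the 3 genes nearest by r (pseudocount 0.5), and a few of them are not reported here. A sign-flip test had been planned for the order of levels and is not reported, since the pairs were ranked on the values tested. Alternatives were other pseudocounts, scalings, filters, tests, list medians, GENCODE vM21 exon lengths (added after seeing the data) and leaving out each culture. No mapping of sequence was needed, and protein sequences were not used here.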

Additional observations from a re-analysis of the deposited data

Results flagged for a closer look

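Of 15 measures (the log2 levels of the 7 counted members and the scores of 8 marker lists), 1 had a culture far from the others. The gap of the most extreme culture to its nearest neighbour, divided by the range, was 0.676 for the endothelial score, above Dixon's critical value of 0.625 for 6 samples. Replicate 5 scored 1.23 and the next culture -0.58. About 0.75 such results would be expected by chance. Among the members, the largest ratio was 0.608, for Tmem150c in replicate 3.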

How the results depend on the processing

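No paired analysis was possible because the study has a single group. Mean CPM per kilobase of the 7 counted members stayed within 1 SD under other scalings and without any culture. With GENCODE exon lengths, chosen after seeing the data, it was 1.33 for Asic2, 6.08 for Piezo2 and 13.3 for Tmem120a, beyond 1 SD, and Piezo2 minus Piezo1 and Tmem150c minus Asic2 turned to -0.25 and -0.24. On the log2 scale, a pseudocount of 1 moved Asic1, Asic2 and Tmem150c, and 0.01 moved Asic1. Without length division, Tmem120a minus Piezo2 was -2.17, since Piezo2 has the longer exons, and Piezo1 minus Asic3, Asic3 minus Tmem150c, Tmem150c minus Asic2 and Asic2 minus Asic1 were 3.35, 0.22, 0.12 and 1.98. With 1 culture left out the differences ranged from 0.91 to 1.00 for Tmem120a minus Piezo2, 0.099 to 0.40 for Piezo2 minus Piezo1, 1.03 to 1.55 for Piezo1 minus Asic3, 1.01 to 1.28 for Asic3 minus Tmem150c, 0.82 to 0.91 for Tmem150c minus Asic2 and 1.09 to 1.32 for Asic2 minus Asic1.

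Genes called for variation numbered 11444, 0 by quasi-dispersion (809 at an unadjusted p under 0.05) and 10118 to 11253 without 1 culture. Without the low-count filter 13488 were called, of 26854 tested. Genes called on the neuron score numbered 29 with edgeR, 353 with DESeq2, 0 without the low-count filter, 66 with the list median and 0 to 0 without 1 culture. On the fibroblast score they numbered 914, 2027 with DESeq2, 1223 without the filter and 107 (without replicate 5) to 882 without 1 culture, with 522 without replicate 4. On the glial lineage score they numbered 0, 698 with DESeq2, 4 without the filter, 1 with the list median and 0 to 1212 (without replicate 1). The cause of these changes was not tested.

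Besides these differences, only relations and slopes that had not passed the threshold turned sign. Without the 2 cultures farthest from the median score, r was 0.54 for Asic1, -0.12 for Piezo2 and -0.77 for Tmem120a with the fibroblast score, -0.13 for Piezo2 with the neuron score, and 0.68 for Tmem120a and 0.15 for Tmem150c with the glial score. The last was 0.057 with library totals and 0.012 with a pseudocount of 1. The fibroblast slope of Tmem150c was 0.025 with the list median. With 1 culture left out, r ranged from -0.71 to 0.081 for Asic1 with the fibroblast, -0.74 to 0.32 for Asic1 with the glial, -0.013 to 0.22 for Asic2 with the fibroblast and -0.70 to 0.12 for Asic3 with the fibroblast score. It ranged from -0.68 to 0.68 for Piezo2 with the fibroblast, -0.72 to 0.23 for Tmem120a with the neuron, -0.65 to 0.59 for Tmem120a with the glial and -0.47 to 0.35 for Tmem150c with the glial score. Slopes then ranged from -0.29 to 0.062 for Tmem120a on the neuron, -0.32 to 0.031 for Asic1 on the fibroblast, -0.0032 to 0.061 for Asic2 on the fibroblast, -0.54 to 0.082 for Asic3 on the fibroblast and -0.078 to 0.12 for Piezo2 on the fibroblast score, and from -0.14 to 0.0056 for Tmem150c on the fibroblast, -3.27 to 0.64 for Asic1 on the glial, -1.93 to 0.080 for Asic2 on the glial, -0.33 to 0.40 for Tmem120a on the glial and -0.90 to 0.83 for Tmem150c on the glial score.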

Other observations

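Markers of neuron subtypes differed widely in level within each class. Of 8 markers of mechanoreceptors and proprioceptors, 6 reached 1 CPM in every library, among them Ntrk2 at 254 ± 46.9 CPM, Ret at 159 ± 45.2 CPM and Nefh at 35.4 ± 11.9 CPM (SD, n = 6). Pvalb, a proprioceptor marker, had at most 3 counts in every library and Runx3 was at 0.293 ± 0.176 CPM, while Piezo2 was at 104 CPM. Of 8 nociceptor markers, 7 reached 1 CPM in every library, among them Tac1 at 19.8 ± 8.47 CPM and P2rx3 at 133 ± 52.0 CPM (SD, n = 6), and Mrgprd was at 0.521 ± 0.410 CPM. Ntrk2, Ret and Gfra2 are not confined to neurons as a rule, and their source in these cultures was not tested.

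Among the 21 pairs of counted members, Asic2 and Tmem150c had the most similar profile over the 6 cultures (r = 0.92 of log2 CPM), both highest in replicate 3 and lowest in replicate 2. Asic3 and Piezo2 followed (r = 0.79), while r was 0.018 for Piezo1 and Piezo2. These values are descriptions of 6 libraries and come with no test.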
